A study of Mus musculus with 18 samples.

Results

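The interferon response genes described here were 39 genes listed by name, of 47729 genes in the count table, with no cut on a measured value. They comprised receptors and sensors of foreign nucleic acid, the transcription factors that carry the interferon signal, and the antiviral genes switched on by those factors. Of the 39 genes, 38 had enough reads to be tested, among 18958 genes tested in all. The exception was *Tlr9*, the endosomal receptor of unmethylated CpG DNA, which had at most 2 counts in any library.

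The RNA came from 9 mice labelled *rd1* (FVB/N animals carrying the recessive *Pde6b* mutation that kills rods) at P40, that is, postnatal day 40. One eye of each mouse received a subretinal injection of AAV8-Best1-Nrf2, which carries the human Nrf2 cDNA, mixed with AAV27M8-Best1-GFP. The other eye received AAV27M8-Best1-GFP alone, giving 9 Best1-Nrf2 eyes and 9 control eyes paired within mice. The human Best1 promoter in both vectors is active in the retinal pigment epithelium (RPE), and the RNA was released from eyecups after the retina had been taken off. By these labels all 18 eyes carried AAV and the *Pde6b* mutation. The strain and the number of mice were taken from the labels, which mark all 9 mice as *rd1*. The methods of the study give fewer *rd1* mice at this age, and the *rd1* and CD1 pairs given there for this age add up to the number of pairs here. Whether the libraries include CD1 mice could not be resolved, and strain could not be a term in any fit. In CPM, that is, counts relative to the TMM-scaled size of the library, *Pde6b* was at 0.00 to 0.55 CPM across the 18 eyes, but the retina had been removed, so this level does not settle the strain. The summed level of rod and cone markers in the control eyes was 3104 CPM in mouse 9, 3023 in mouse 2, 2612 in mouse 3, 2515 in mouse 1, 1175 in mouse 5, 852 in mouse 7, 559 in mouse 8, 525 in mouse 4 and 470 in mouse 6. No mouse was assigned a strain from these values. No uninjected eye was analysed here, so a response to AAV itself could not be measured, and the treated eyes received 1 vector more than the control eyes, so that the added vector and Nrf2 cannot be told apart.

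Interferons are secreted proteins that cells release after sensing viral nucleic acid. Type I interferons bind the receptor chains encoded by *Ifnar1* and *Ifnar2*, and the signal reaches the nucleus as a complex that contains STAT2 and IRF9 and binds a DNA motif called the interferon-stimulated response element (ISRE). Interferon gamma acts chiefly through a different motif, the gamma-activated site (GAS). AAV carries a single-stranded DNA genome, and TLR9 is the best known sensor of that DNA.

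The 18 libraries held 18956748 to 49598700 counts, and the smallest was control replicate 8. Levels are given as CPM. *Nfe2l2*, the mouse gene for Nrf2, to which reads of the human cDNA may also have been assigned, ranged from 76.7 to 134 CPM in the control eyes and from 275 to 704 CPM in the Best1-Nrf2 eyes, with no overlap. The summed level of 15 RPE markers was 13422 to 70096 CPM in control eyes against 16419 to 79583 CPM in treated eyes, with medians of 41161 and 20745 CPM, and 5 of the 15 fell (*Rpe65*, *Lrat*, *Rgr*, *Rlbp1* and *Rdh5*). Of 20 macrophage and microglia markers, 12 rose and 0 fell, with a summed level of 246 to 596 CPM in control eyes against 337 to 980 CPM in treated eyes. Of 10 cone markers, 9 fell, and of 9 rod markers tested, 4 fell and 1 rose, with a median log2 fold change of -1.91. The summed level of all 11 rod markers did not fall in the same way. Its medians were 375 CPM in control and 430 CPM in treated eyes, and it was higher in the treated eye of 5 of 9 mice. Of 9 fibroblast and sclera markers tested, 1 rose, and their summed level was higher in the treated eye of 8 of 9 mice. No Müller glia marker passed (0 of 6), but their summed level was higher in the treated eye of 9 of 9 mice, with medians of 1162 CPM in control and 1540 CPM in treated eyes. The part of these cell types in the results was not tested. None of the T and NK cell markers tested passed the threshold (0 of 4), 1 of 3 B cell markers fell (*Jchain*), 1 of 4 neutrophil markers (*Csf3r*) and 1 of 7 dendritic cell markers (*Siglech*) rose, and no marker of these lists was at 0 in all eyes.

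The comparison of the fellow eyes asked whether Nrf2 delivery to the RPE changed the interferon response genes beyond their level in an eye given AAV with GFP alone. Of the 38 genes tested, 4 rose with Best1-Nrf2 and 0 fell at an adjusted p under 0.05 (edgeR quasi-likelihood test with mouse as a block, Benjamini-Hochberg adjustment over all genes tested). Across all genes tested 3.12% rose and 1.13% fell, and the share of these 38 genes that rose was 10.5%. These genes, and the other pathway genes described further on, were listed with earlier results of these data known. Their shares are therefore not independent of these data. The 4 genes were *Igtp*, *Mx1*, *Rsad2* and *Bst2*. The median log2 fold change of the 38 genes was 0.27, against -0.025 for all genes tested, with 25 positive and 13 negative values. At an unadjusted p under 0.05 there were 10 of the 38 genes, all with a positive log2 fold change, against 12.8% of all genes in either direction. No gene of the 38 had 9 Best1-Nrf2 eyes all above the 9 control eyes, an order found in 1.05% of all genes. Of the 38 genes, 4 (*Igtp*, *Mx1*, *Bst2* and *Ifnar2*) were higher in the treated eye in 9 of 9 mice, which held for 3.12% of all genes. The plot of fold changes by role shows that the 4 genes came from only 2 of the 9 roles into which the genes were sorted.

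**Figure D1:**
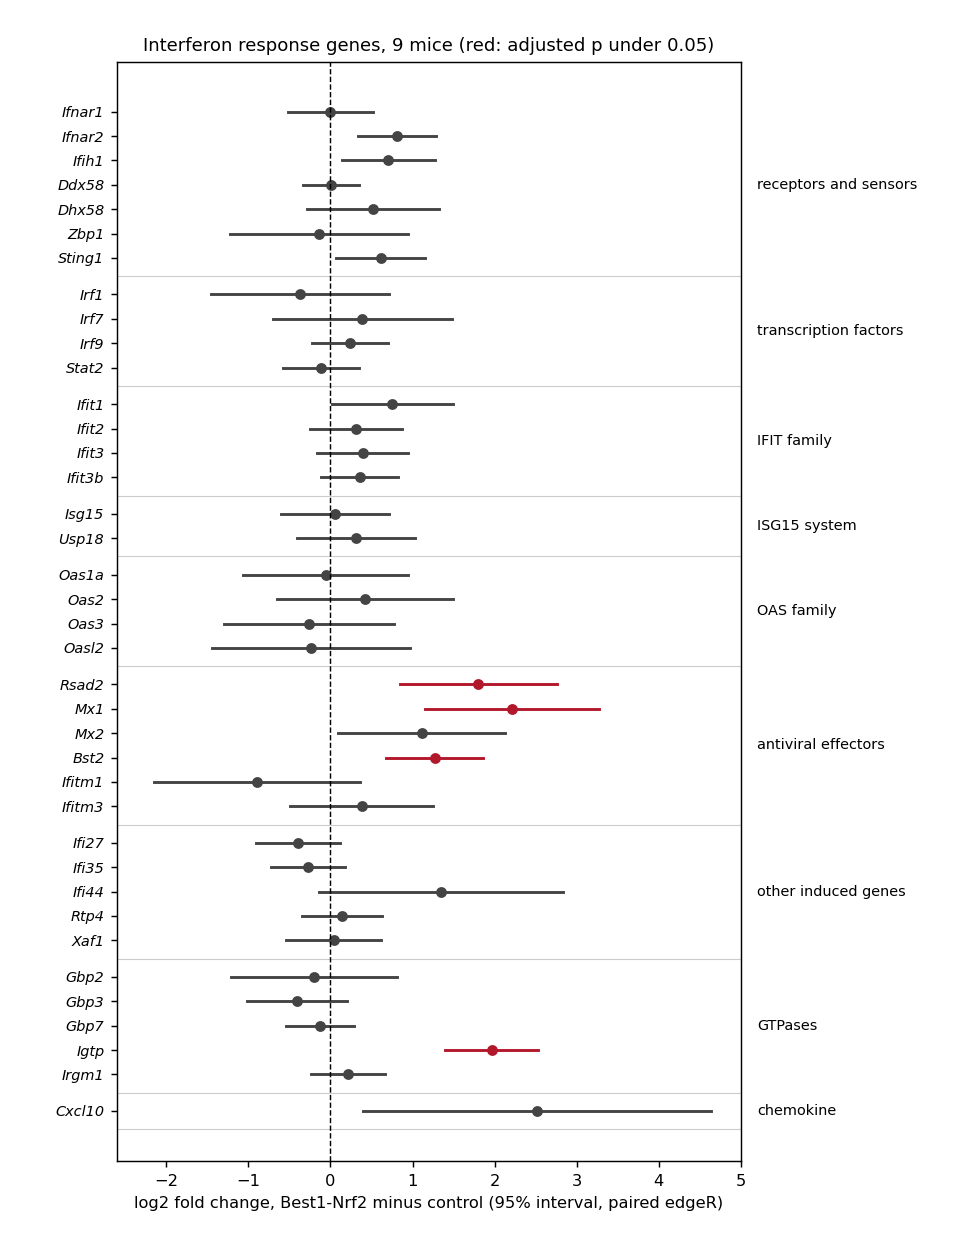
Log2 fold change (Best1-Nrf2 minus control, x axis) of the 38 interferon response genes tested, grouped by role, with 95% intervals from the paired edgeR fit over 9 mice. The 4 genes in red (*Rsad2*, *Mx1*, *Bst2* and *Igtp*) passed an adjusted p of 0.05, and the intervals of most other genes cross 0.

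*Igtp* encodes an immunity-related GTPase (also called Irgm3) that acts on the membranes around intracellular pathogens and lies at chr11:58199556-58207591 (GRCm38, plus strand). Its level in the 9 control eyes was 8.97 CPM at the lowest, 11.8 at the median and 18.3 at the highest. In the 9 Best1-Nrf2 eyes the values were 14.7, 46.4 and 88.0 CPM. All Best1-Nrf2 eyes except that of mouse 6 were above the highest control eye, and the gene was higher in the treated eye of 9 of 9 mice. The log2 fold change was 1.96 (standard error 0.26, 95% interval 1.40 to 2.53, adjusted p = 0.000797), a 3.90-fold rise. *Igtp* was also among the members that varied least between control eyes, with an SD of 0.31 on the log2 scale. The smallest difference within a mouse was 0.30 on the log2 scale, in mouse 6, and the largest was 2.84, in mouse 7. Annotation places the neighbouring GTPase gene *Irgm2* over the *Igtp* locus on the same strand, and 15.9% of the 31-base words of *Igtp* exons also occur in *Irgm2*, so reads may have been divided between these genes.

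*Bst2* encodes tetherin, which holds budding enveloped virus particles at the cell surface, and lies at chr8:71534255-71537456 on the minus strand. Control eyes had 13.4 CPM at the lowest, 21.2 at the median and 52.5 at the highest. Best1-Nrf2 eyes had 39.5, 57.2 and 106 CPM. The groups overlapped through the control eyes of mice 3 and 5, at 44.5 and 52.5 CPM, while 9 of 9 mice had more in the treated eye. The log2 fold change was 1.27 (standard error 0.27, 95% interval 0.67 to 1.86, adjusted p = 0.0195).

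*Mx1* encodes a dynamin-like GTPase that blocks viral replication in the nucleus, and lies at chr16:97447035-97462907 on the minus strand. Its level was low, with 5 to 52 counts in the control libraries and 19 to 238 in the Best1-Nrf2 libraries. In CPM the control eyes ran from 0.139 over a median of 0.320 to 1.21, and the Best1-Nrf2 eyes from 0.551 over 1.38 to 6.17. The treated eye was higher in 9 of 9 mice, and 6 of the 9 treated eyes were above the highest control eye. The log2 fold change was 2.21 (standard error 0.49, 95% interval 1.15 to 3.27, adjusted p = 0.0218). *Mx1* shares 8.12% of its 31-base words with other genes, chiefly *Mx2*.

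*Rsad2* encodes viperin, an enzyme that makes a chain-terminating nucleotide, and lies at chr12:26442746-26456452 on the minus strand. Control eyes had 0.195 CPM at the lowest, 0.851 at the median and 2.97 at the highest, from 7 to 128 counts. Best1-Nrf2 eyes had 0.841, 3.18 and 6.61 CPM. It was higher in the treated eye of 8 of 9 mice, with a log2 difference of -0.05 in mouse 6. The log2 fold change was 1.80 (standard error 0.44, 95% interval 0.84 to 2.76, adjusted p = 0.0390), and without the mouse block the adjusted p was 0.0735. Leaving out both eyes of single mice ended the call for *Rsad2* in 7 of 9 cases, for *Mx1* in 4 and for *Bst2* in 2 (mice 4 and 7). *Igtp* passed the threshold whichever mouse was left out.

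**Figure D2:**
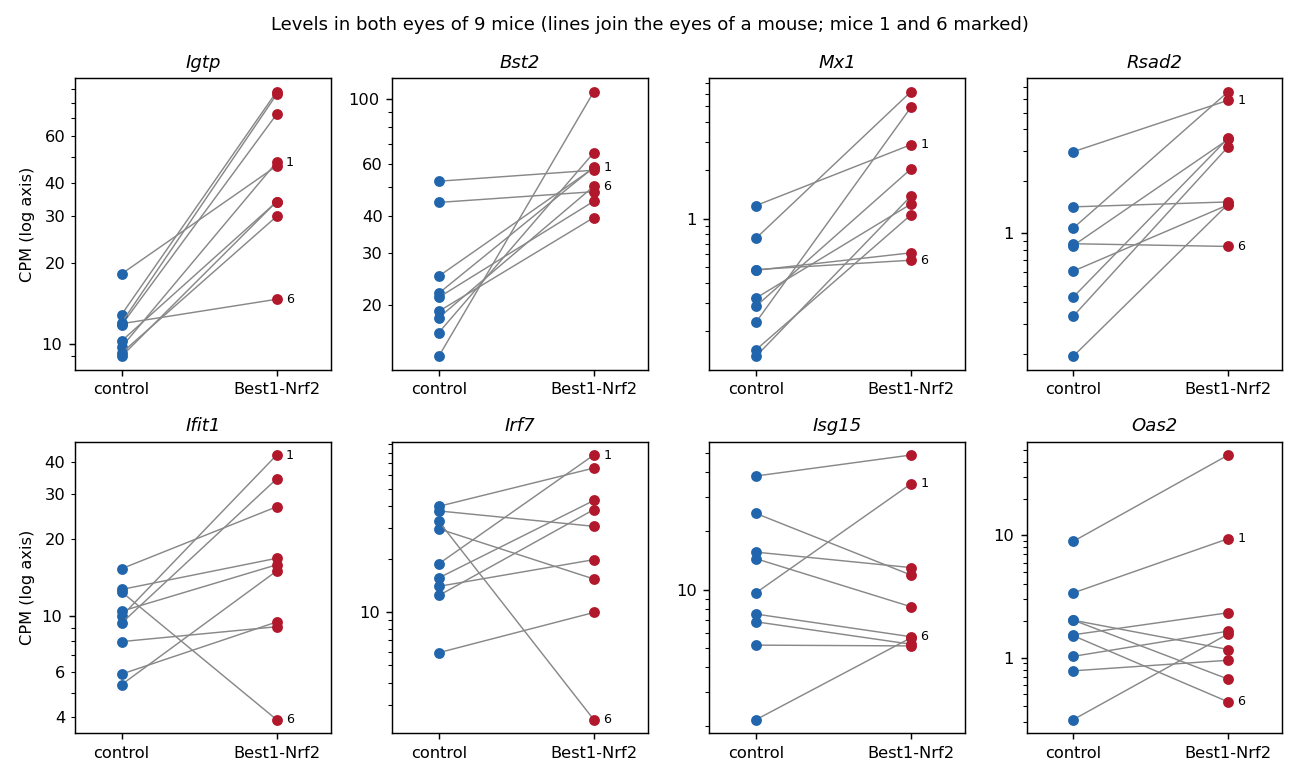
CPM (log axis) of the 4 genes that rose (top) and of 4 that did not pass the test (bottom) in both eyes of 9 mice, with a line joining the 2 eyes of a mouse and mice 1 and 6 marked. Nearly all lines climb in the top row, whereas in the bottom row the lines run in both directions and the Best1-Nrf2 eyes spread further apart, with *Irf7* between 2.47 CPM in mouse 6 and 77.9 CPM in mouse 1.

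Promoters of genes that rose are printed here to show which interferon motifs they carry: *Igtp*, *Bst2* and *Rsad2* of the 39 genes, and *Irgm2* and *Socs1* of the other pathway genes described further on, with *Isg15*, a classical ISRE gene that did not pass the test, beside them. Each sequence covers the 250 bases before the transcription start in RefSeq (GRCm38.p6), 5′ to 3′ on the strand of the gene. Capitals mark matches to the ISRE core (GAAA, any 2 bases, then GAAA) or the GAS core TTCNNNGAA on either strand, some of which overlap. The positions are chr11:58199306-58199555, plus strand for *Igtp*, chr11:58214727-58214976, plus strand for *Irgm2*, chr8:71537473-71537722, minus strand for *Bst2*, chr12:26456453-26456702, minus strand for *Rsad2*, chr16:10785537-10785786, minus strand for *Socs1* and chr4:156200819-156201068, minus strand for *Isg15*.
*Igtp*: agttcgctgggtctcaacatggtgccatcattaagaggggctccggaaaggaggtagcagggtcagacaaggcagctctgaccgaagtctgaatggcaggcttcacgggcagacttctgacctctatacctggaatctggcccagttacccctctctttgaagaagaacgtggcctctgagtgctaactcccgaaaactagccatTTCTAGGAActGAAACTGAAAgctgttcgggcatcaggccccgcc
*Irgm2*: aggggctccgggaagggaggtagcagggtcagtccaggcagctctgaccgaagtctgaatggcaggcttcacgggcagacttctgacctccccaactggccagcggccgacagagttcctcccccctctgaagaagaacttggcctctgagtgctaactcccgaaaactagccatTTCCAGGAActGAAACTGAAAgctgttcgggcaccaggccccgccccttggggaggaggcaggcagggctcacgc
*Bst2*: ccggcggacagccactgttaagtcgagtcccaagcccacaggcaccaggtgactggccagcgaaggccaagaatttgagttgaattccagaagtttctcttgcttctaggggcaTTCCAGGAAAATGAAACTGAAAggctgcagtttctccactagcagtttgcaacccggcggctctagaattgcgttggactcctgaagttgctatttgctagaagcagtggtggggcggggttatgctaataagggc
*Rsad2*: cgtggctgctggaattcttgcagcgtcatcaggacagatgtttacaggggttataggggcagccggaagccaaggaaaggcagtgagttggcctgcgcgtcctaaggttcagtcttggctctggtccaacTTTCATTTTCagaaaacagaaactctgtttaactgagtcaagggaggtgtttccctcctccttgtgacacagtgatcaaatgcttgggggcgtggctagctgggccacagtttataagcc
*Socs1*: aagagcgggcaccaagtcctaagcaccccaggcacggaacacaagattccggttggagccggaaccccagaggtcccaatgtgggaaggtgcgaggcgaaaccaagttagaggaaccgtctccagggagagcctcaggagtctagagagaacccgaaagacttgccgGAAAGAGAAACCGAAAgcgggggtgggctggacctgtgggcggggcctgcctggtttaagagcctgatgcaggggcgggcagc
*Isg15*: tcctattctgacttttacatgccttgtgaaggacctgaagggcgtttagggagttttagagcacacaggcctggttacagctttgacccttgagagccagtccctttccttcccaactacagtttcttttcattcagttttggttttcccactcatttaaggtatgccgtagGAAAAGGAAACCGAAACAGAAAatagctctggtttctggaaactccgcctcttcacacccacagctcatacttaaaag

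In *Igtp* the GAS core ended 37 bases before the start and the ISRE core followed at 34 to 25 bases before it. *Irgm2* carried the same order of motifs at 75 to 67 and at 64 to 55 bases before its start, and the longest run of identical bases in the promoters of *Igtp* and *Irgm2* was 55 bases. In *Bst2* a GAS core and 2 ISRE cores overlapped between 136 and 115 bases before the start, and a run of 12 bases, from 125 to 114 bases before the start, occurs unchanged in *Igtp*. *Rsad2* had 1 ISRE core, read on the opposite strand, at 120 to 111 bases before its start. *Socs1* had 2 overlapping ISRE cores between 83 and 68 bases before its start and no GAS core. *Isg15* had 3 overlapping ISRE cores between 78 and 57 bases before its start and no GAS core. Of the other pathway genes that rose, *Trim30a* held an ISRE core and no GAS core, and *Lgals3bp* held neither.

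Of the 39 genes, 30 had an entry in the RefSeq promoter table, which covers 250 bases before to 50 bases after the start. *Mx1*, *Mx2*, *Oas2*, *Rtp4*, *Usp18*, *Zbp1*, *Dhx58*, *Ifi27* and *Sting1* had no match. The ISRE core was found in 18 of these 30 genes (60.0%), against 3.99% of 27025 genes in the table. Among genes that rose it was found in 3 of 3 with an entry, and among the other members in 15 of 27. The GAS core was found in 10 of 30 genes (33.3%), against 9.55% of all genes. The antioxidant response element core TGACNNNGC, the motif bound by Nrf2 with small Maf proteins, was found in 7 of 30 genes (23.3%), *Igtp* and *Rsad2* among them, against 13.99% of all genes. These letters describe the windows and do not show binding. The map of motif positions shows that the ISRE cores lay before the start in most of these genes.

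**Figure D3:**
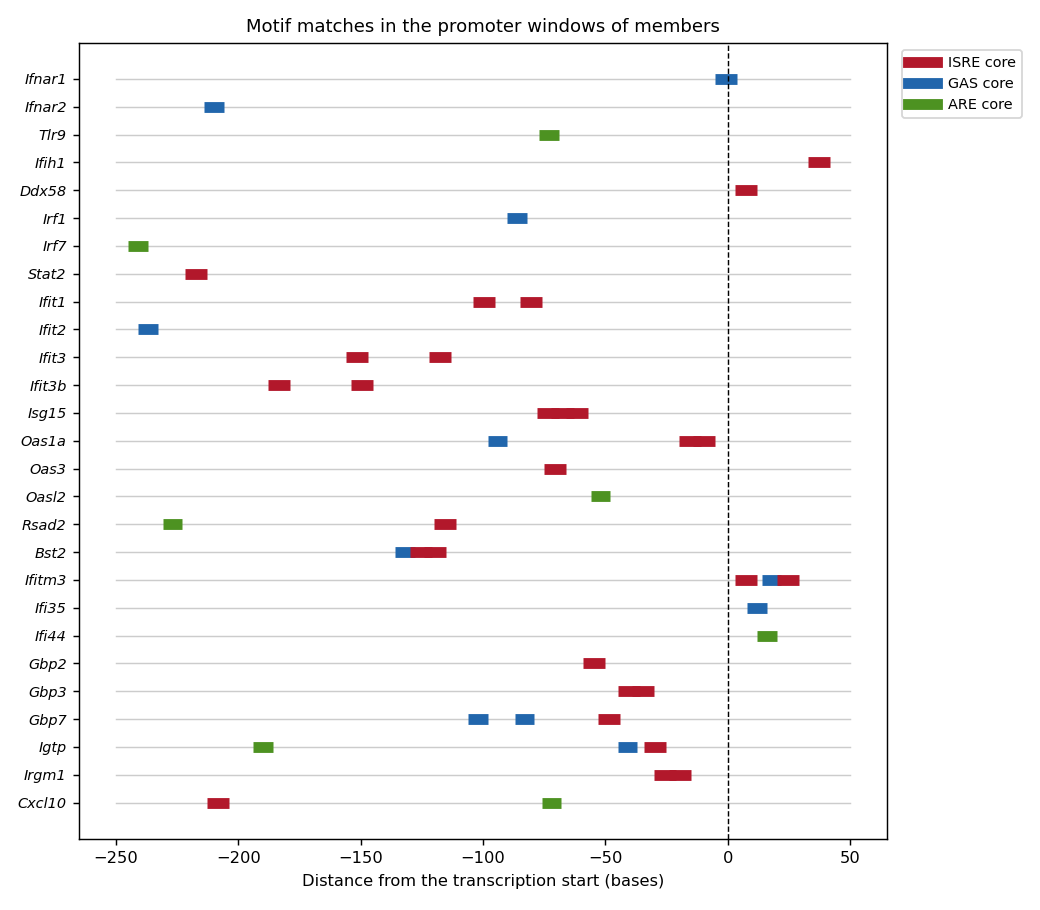
Position of ISRE (red), GAS (blue) and antioxidant response element, ARE (green), core matches in the promoter windows of the interferon response genes with at least 1 match, with distance from the transcription start in bases on the x axis. *Isg15*, *Bst2*, *Gbp3* and *Irgm1* carry adjoining ISRE cores, and *Igtp* carries all 3 motifs.

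Among the receptors and sensors, 0 of 7 genes tested passed the threshold. *Ifnar2*, the signalling chain of the type I interferon receptor, came closest. It had 25.99 CPM at the lowest, 46.7 at the median and 89.0 at the highest in control eyes, and 59.2, 91.9 and 126 CPM in Best1-Nrf2 eyes. The treated eye was higher in 9 of 9 mice, with a log2 fold change of 0.81 (standard error 0.22, adjusted p = 0.0635). Its partner chain *Ifnar1* had a log2 fold change of -0.0020 (95% interval -0.52 to 0.51). *Ifih1*, which encodes the RNA sensor MDA5, had a median of 3.65 CPM in control eyes against 6.63 CPM in treated eyes, with a log2 fold change of 0.70 (adjusted p = 0.223). *Sting1*, the adaptor of cytosolic DNA sensing, listed as Tmem173 in the name table, had a log2 fold change of 0.61 (adjusted p = 0.304). The RNA sensor gene *Ddx58* (RIG-I) stood at 0.0086 (95% interval -0.33 to 0.35), its relative *Dhx58* (LGP2) at 0.52 and *Zbp1*, a sensor of Z-form nucleic acid, at -0.14.

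The 4 transcription factor genes did not pass the test, and their intervals were of very different width. *Irf7*, the amplifier of type I interferon production, ran from 5.91 over 18.9 to 39.9 CPM in control eyes and from 2.47 over 30.7 to 77.9 CPM in Best1-Nrf2 eyes, a log2 fold change of 0.39 (95% interval -0.70 to 1.48). *Irf1*, the first factor induced by interferon gamma, ran from 19.8 over 78.7 to 207 CPM in control eyes and from 9.75 over 66.6 to 216 CPM in Best1-Nrf2 eyes, with a log2 fold change of -0.37 (95% interval -1.46 to 0.71). *Irf9* and *Stat2*, which encode subunits of the ISRE-binding complex, were better determined, at 0.24 (95% interval -0.23 to 0.70) and -0.11 (95% interval -0.58 to 0.35).

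The IFIT genes, whose products bind foreign RNA ends and block translation, had positive log2 fold changes in 4 of 4 cases, and 0 of 4 passed the test. *Ifit1* ran from 5.38 over 9.97 to 15.3 CPM in control eyes and from 3.92 over 15.9 to 42.8 CPM in Best1-Nrf2 eyes. Its log2 fold change was 0.75 (standard error 0.34, adjusted p = 0.369), with the treated eye higher in 8 of 9 mice. *Ifit2*, *Ifit3* and *Ifit3b* had log2 fold changes of 0.31, 0.39 and 0.36. *Ifit3* and *Ifit3b* share 61.8% and 55.2% of their 31-base words with other genes, chiefly with each other, so their values are not separate measurements.

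*Isg15*, which encodes a ubiquitin-like protein that is attached to other proteins, varied 17.8-fold between control eyes. The control values were 2.16 CPM at the lowest, 9.65 at the median and 38.3 at the highest, and the Best1-Nrf2 values were 5.15, 8.18 and 49.1 CPM. Both highest values came from mouse 8. The log2 fold change was 0.05 (95% interval -0.60 to 0.71), with a higher treated eye in 3 of 9 mice. *Usp18*, which encodes the protease that removes ISG15 and dampens receptor signalling, had a log2 fold change of 0.31 (95% interval -0.41 to 1.02).

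The OAS genes encode enzymes that activate RNase L in response to double-stranded RNA, and 0 of 4 passed the test. Their log2 fold changes were -0.06 for *Oas1a*, 0.42 for *Oas2*, -0.26 for *Oas3* and -0.24 for *Oasl2*, each with a 95% interval that spanned 0. *Oas2* had a highest value of 45.5 CPM in the Best1-Nrf2 eye of mouse 3, where the next eye had 9.41 CPM, and the control eye of mouse 3 was also the highest of its group at 8.94 CPM. The other 7 Best1-Nrf2 eyes lay between 0.435 and 2.33 CPM. *Oas1a* shares 68.8% of its 31-base words with other genes, chiefly *Oas1g*, so its value is uncertain.

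The antiviral effector genes split between *Rsad2*, *Mx1* and *Bst2*, which rose, and 3 others. *Mx2*, annotated as a polymorphic pseudogene in the reference strain, had a log2 fold change of 1.11 (95% interval 0.10 to 2.13, adjusted p = 0.319) and 0 counts in control replicate 8. *Ifitm1* and *Ifitm3*, whose products stop virus fusion at endosomal membranes, were the most abundant of all the members per length, at 673 and 257 RPKM (CPM divided by the exon length in kilobases) in control eyes. *Ifitm1* also varied most in absolute terms, from 110 to 1806 CPM between control eyes and from 41.2 to 3560 CPM between Best1-Nrf2 eyes. Its log2 fold change was -0.89 (95% interval -2.15 to 0.36), and that of *Ifitm3* was 0.38 (95% interval -0.50 to 1.25). On the same per-length scale *Mx1* and *Rsad2* were among the lowest members in control eyes, at 0.119 and 0.224 RPKM, whereas *Igtp* and *Bst2* stood at 5.77 and 28.5 RPKM.

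Among the other interferon-induced genes 0 of 5 passed. *Ifi44* had a log2 fold change of 1.34 with a wide interval of -0.14 to 2.83, and its values ran from 0.145 CPM in mouse 6 to 13.4 CPM in mouse 1 in the Best1-Nrf2 eyes. *Rtp4* and *Xaf1* had log2 fold changes of 0.14 and 0.04, and *Ifi27* and *Ifi35* of -0.40 and -0.27. For *Ifi35* the treated eye was higher in only 2 of 9 mice, and the difference did not pass (adjusted p = 0.693).

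Of the 5 GTPase genes tested, *Igtp* alone rose. *Irgm1*, the regulatory member of the same family, had a log2 fold change of 0.21 (95% interval -0.24 to 0.66). Its level was the steadiest of the members between control eyes, at 22.98 to 40.5 CPM and an SD of 0.28 on the log2 scale. The guanylate-binding protein genes *Gbp2*, *Gbp3* and *Gbp7*, which are targets of interferon gamma and attack pathogen-containing vacuoles, had log2 fold changes of -0.20, -0.41 and -0.13. Their upper 95% limits were 0.81, 0.20 and 0.29, below the lower limit of 1.40 for *Igtp*. The difference between these genes and *Igtp* was not itself tested.

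*Cxcl10*, the chemokine that attracts activated T cells, had the largest log2 fold change of the 38 genes, 2.51, and did not pass the test (95% interval 0.39 to 4.64, adjusted p = 0.262). It had at most 31 counts in a control library. Mouse 8 went against the other 8 mice, with 1.77 CPM in the control eye and 0 in the treated eye, and without mouse 8 the adjusted p was 0.0161.

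The spread between the control eyes was examined because each of them had received AAV27M8-Best1-GFP. The median SD of the 38 genes over the 9 control eyes was 0.62 on the log2 CPM scale, against 0.69 for all genes tested, and 16 of the 38 lay above that all-gene median. Control replicate 8, the smallest library, held the highest control value for 13 of the 38 genes and the lowest for 9, and without it the median SD of the 38 genes was 0.55. In the Best1-Nrf2 eyes the median SD of the 38 genes was 0.92, against 0.72 for all genes, and 26 of 38 lay above it. The SD was larger in Best1-Nrf2 eyes than in control eyes for 30 of the 38 genes (78.9%) and for 59.2% of all genes. The members that varied most between control eyes were *Mx2*, *Cxcl10*, *Ifitm1*, *Ifi44* and *Oas2*, with SDs of 1.73, 1.56, 1.33, 1.33 and 1.30 on the log2 scale. The order rests in part on libraries with few counts. Without the eye farthest from the median, the SD of *Mx2* was 0.63 (control replicate 8, at 0 counts) and that of *Ifi44* 0.58 (control replicate 9, at 4 counts), both below the all-gene median, whereas those of *Cxcl10*, *Ifitm1* and *Oas2* were 1.17, 1.09 and 0.99. The steadiest were *Irgm1*, *Igtp*, *Ifit3b* and *Irf9*, at 0.28, 0.31, 0.35 and 0.37.

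Averaged over the 38 genes, the control eyes ran from 2.95 log2 CPM in mouse 9 to 3.78 in mouse 5, a range of 0.83. The Best1-Nrf2 eyes ran from 2.71 in mouse 6 to 4.82 in mouse 1, a range of 2.10, and 5 of the 9 lay above the highest control eye. The mean difference between the eyes of a mouse was 1.34 in mouse 1, 0.81 in mouse 9, 0.57 in mouse 5, 0.52 in mouse 8, 0.39 in mouse 3, 0.36 in mouse 7, 0.19 in mouse 2, 0.02 in mouse 4 and -0.93 in mouse 6. In mouse 1, 37 of the 38 genes were higher in the treated eye and 27 were over 2-fold higher. In mouse 6, 27 of the 38 genes were lower in the treated eye and 18 were over 2-fold lower. The Best1-Nrf2 eye of mouse 1 held the highest treated value for 18 of the 38 genes, and that of mouse 6 held the lowest for 22. The treated eye of mouse 6 also had the lowest *Nfe2l2* of the treated eyes, 275 CPM, and that of mouse 1, at 312 CPM, was also below the treated median of 457 CPM. Without mouse 6, *Ifit1* (adjusted p = 0.0323) and *Ifi44* (adjusted p = 0.0398) passed beside *Igtp*, *Mx1*, *Rsad2* and *Bst2*, and 6 of the 38 genes rose. Over all genes, the number past the threshold in either direction also grew without mouse 6, from 806 to 1046.

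**Figure D4:**
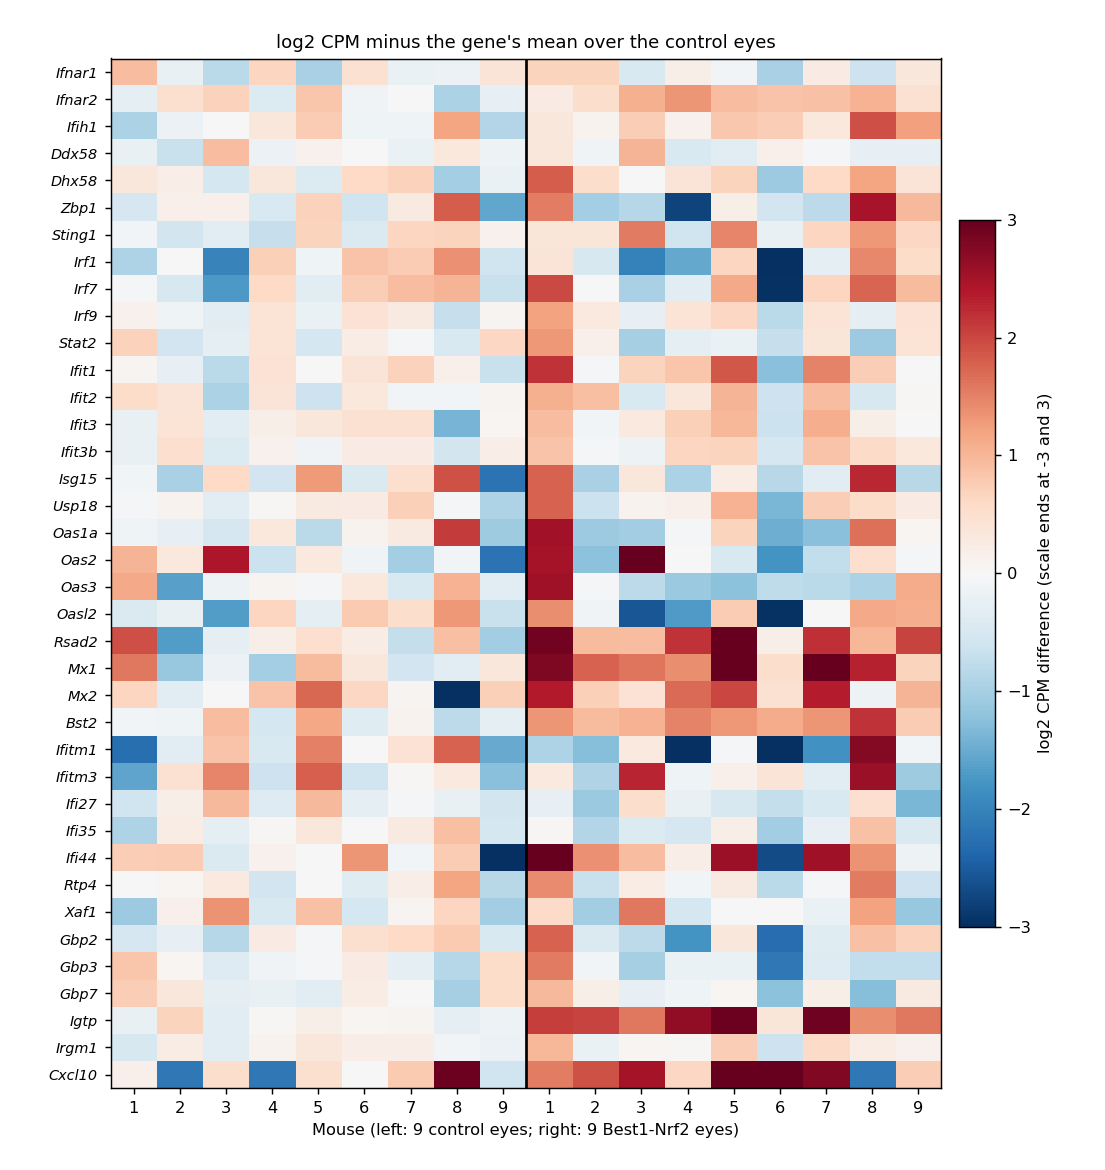
Difference of each eye from the mean of the 9 control eyes, in log2 CPM, for 38 interferon response genes (rows) in 9 control eyes (left) and 9 Best1-Nrf2 eyes (right), numbered by mouse. *Igtp*, *Bst2* and *Mx1* are raised in most treated eyes, the treated eye of mouse 1 is raised in nearly all rows, and that of mouse 6 is lowered in most.

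Macrophage and microglia markers moved in the same direction as the genes that rose. The mean log2 CPM of the 20 markers was higher in the treated eye of 9 of 9 mice, and their summed CPM in 7 of 9. The 2 mice with a lower sum in the treated eye were mouse 1 (596 CPM in the control eye and 441 CPM in the treated eye) and mouse 4 (400 and 337 CPM). In these mice *Igtp* went from 9.72 to 47.9 CPM and from 11.8 to 72.4 CPM, and *Bst2* from 21.9 to 58.5 CPM and from 16.1 to 65.6 CPM. In mouse 8, where the marker sum differed most, from 246 to 980 CPM, *Igtp* went from 9.23 to 30.0 CPM. There *Bst2* went from 13.4 to 106 CPM, its largest rise within a mouse, at 2.97 on the log2 scale. With the mean log2 CPM of the markers added to the paired model, 0 of the 38 genes and 32 of all 18958 genes passed. In that fit *Igtp* had a log2 fold change of 2.10 (adjusted p = 0.475), *Rsad2* of 1.91, *Mx1* of 1.23 and *Bst2* of 0.72. Since the marker level and the treatment moved together in 9 of 9 mice, their parts cannot be told apart. In RNA released from eyecups, a change in the number of cells of a type cannot be told from a change in RNA per cell.

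**Figure D5:**
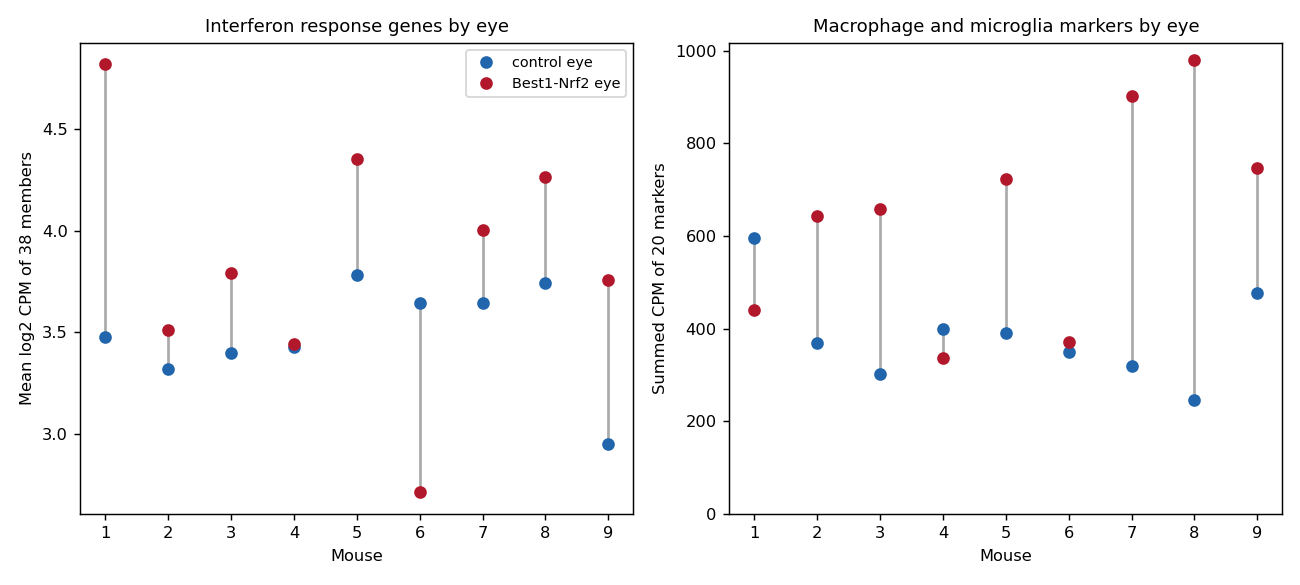
Mean log2 CPM of the 38 interferon response genes (left) and summed CPM of 20 macrophage and microglia markers (right) in the control eye (blue) and the Best1-Nrf2 eye (red) of each mouse. Mouse 1 has the largest rise on the left, from 3.48 to 4.82, and a fall on the right, from 596 to 441 CPM, and mouse 6 falls on the left with nearly equal marker sums.

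The rest of the interferon pathway was followed in 101 further genes, of which 78 were tested. Of these, 4 rose (5.13%, against 3.12% of all genes) and 0 fell, 10 had an unadjusted p under 0.05 (12.8%, the same share as among all genes), and their median log2 fold change was 0.053. The 21 interferon genes themselves were not tested for lack of reads. Of these, 14 had no count in any library, and *Ifnb1* had 1 count in 1 control library. The 18 libraries together held 80 counts of interferon genes in control eyes and 57 in Best1-Nrf2 eyes, most of them from *Ifnz*, a zeta interferon. Of the 31-base words of *Ifnz* exons, 83.4% also occur in other genes (80.2% in *Gm13288*), and the share was 14.5% (*Ifna4*) to 88.3% (*Ifna1*) for the interferon alpha genes, so these counts and zeros may reflect how shared reads were assigned. Control replicate 7 alone held 37 of the 80, and without it the control eyes held 43. A count of 0 allows a level of up to 3 counts, which is 0.0522 CPM in the Best1-Nrf2 library of mouse 1 and 0.171 CPM in control replicate 8, the lowest and the highest of the 18 limits, for counting error only.

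*Trim30a*, which encodes a feedback inhibitor of inflammatory signalling, ran from 0.622 over 1.61 to 4.16 CPM in control eyes and from 3.62 over 6.39 to 11.8 CPM in Best1-Nrf2 eyes, with a log2 fold change of 1.79 (standard error 0.29, adjusted p = 0.00335). It was higher in the treated eye of 9 of 9 mice. *Irgm2*, the neighbour of *Igtp*, ran from 0.228 over 4.19 to 5.69 CPM and from 2.00 over 14.5 to 19.4 CPM, a log2 fold change of 1.78 (standard error 0.41, adjusted p = 0.0290), and its lowest control value, in control replicate 8, rested on 4 counts. Within mice the log2 difference of *Irgm2* ran from -1.48 in mouse 6 to 3.30 in mouse 8. *Socs1*, the feedback inhibitor of JAK kinases, had a median of 3.49 CPM in control eyes and 6.25 CPM in treated eyes, a log2 fold change of 1.10 (standard error 0.24, adjusted p = 0.0233). *Lgals3bp*, which encodes a secreted galectin-binding glycoprotein, had medians of 170 and 263 CPM and a log2 fold change of 0.73 (standard error 0.15, adjusted p = 0.0181), with 9 of 9 mice in that direction. *Trim30a* passed whichever mouse was left out, whereas *Irgm2* lost its call in 8 of 9 cases, *Socs1* in 5 and *Lgals3bp* in 3.

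None of the kinase, receptor chain and IRF genes of this list named here passed the threshold. *Jak1*, *Jak2* and *Tyk2*, which encode the receptor kinases, had log2 fold changes of 0.15, 0.03 and 0.17, and the interferon gamma receptor chains *Ifngr1* and *Ifngr2* of -0.18 and -0.05. *Irf3*, the factor activated by nucleic acid sensors, had -0.29 (95% interval -0.58 to 0.0044), with a higher treated eye in 1 of 9 mice. *Irf8*, a factor also made by macrophages, had 0.97 (adjusted p = 0.135, and 0.015 to 1.00 over the alternatives, with a pass under DESeq2, without the mouse block and without mouse 6), with 6 of 9 treated eyes above the highest control eye. *Tbk1* and *Ikbke*, which encode the kinases that activate IRF3, had log2 fold changes of 0.19 and 0.24, and the factor genes *Irf2* and *Irf5* of 0.085 and 0.17. *Ifnlr1*, the specific chain of the interferon lambda receptor, had -0.13 (95% interval -1.51 to 1.26). *Il10rb*, the chain that this receptor shares with the IL-10 receptor, had medians of 38.4 and 56.1 CPM and a log2 fold change of 0.33 (95% interval -0.17 to 0.83, adjusted p = 0.655), with a higher treated eye in 8 of 9 mice. Under DESeq2 with the same block, 7 of the 38 interferon response genes rose, *Ifnar2*, *Mx2* and *Cxcl10* beside the other 4, against 4.96% of all genes that rose under that tool.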

How the data were processed

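RNA was profiled from the RPE of both eyes of 9 mice labelled *rd1* (18 libraries). Per the labels, poly(A) RNA was amplified with an Ultra Low v4 kit and sequenced in 2 runs, which are not assigned to libraries. The authors aligned reads to mm10 and quantified Ensembl genes with featureCounts and Salmon (0.8.1 in the submitters' processing notes). The deposited table holds whole-number values that were treated as estimated counts, and which counter made it is not given in the sources used here. Symbols were matched for 47224 of 47729 gene identifiers.

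Counts were tested with edgeR 4.0.16 in R 4.3.3 (filterByExpr, TMM, quasi-likelihood F test, mouse as block), with Benjamini-Hochberg adjustment over 18958 genes and a threshold of 0.05. The labels give both eyes of a mouse the same individual number. The deviations of the 2 eyes from their group means correlated by -0.37 to 0.64 (median -0.00), over 0.1 in 3 of 9 mice. Log2 CPM used a prior count of 2. Coordinates and exon lengths came from GENCODE M21 (GRCm38) and promoters from RefSeq. Alternatives were DESeq2 1.42.0, RLE scaling, 2 other count filters, no block, a threshold of 0.1, a macrophage marker covariate and leaving out each mouse. In simulated counts the share of false calls was under the threshold with edgeR and above it with DESeq2. Those counts were drawn from gene means and edgeR dispersions without differences between mice, so they cannot rank the tools for these paired eyes. All 39 members are accounted for, pathway genes were named if they passed or encode IRFs, kinases or receptor chains, and others are given as counts. The members and lists were chosen with earlier results of these data known. One further pathway gene is in the counts but is not reported here.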

Additional observations from a re-analysis of the deposited data

Results flagged for a closer look

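In each of 76 groups of 9 eyes (38 genes in 2 groups), the highest and lowest eyes were screened for a gap to their neighbour larger than Dixon's critical value of 0.493 of the group's range. Chance flags about 1 in 20 such groups, or 3.8 of 76, and 5 were flagged, all among control eyes. Of the 5, 3 were control replicate 8, the smallest library. *Ifit3* was lowest there at 3.99 log2 CPM, with the next eye at 5.08. *Oas1a* was highest there at 3.78, with the next eye at 1.99. *Mx2* was lowest there at -4.23, from 0 counts, with the next eye at -0.22. *Ifi44* was lowest in control replicate 9 at -2.88, from 4 counts, with the next eye at -0.08. *Igtp* was highest in control replicate 2 at 4.20, with the next eye at 3.69. Without mouse 8 the number of interferon response genes that rose was 5 in place of 4, without mouse 9 it was 3 and without mouse 2 it was 2, and *Igtp* passed in each of these fits. All genes past the threshold then numbered 791 without mouse 8, 585 without mouse 9 and 629 without mouse 2, against 806.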

How the results depend on the processing

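The number of interferon response genes that rose was 4 with RLE scaling and with no count filter, 5 at a threshold of 0.1, 2 where at least 10 counts were required in every library (which left out *Mx1* and *Rsad2*), 7 with DESeq2 and 0 with the macrophage marker covariate. Leaving out 1 mouse at a time gave 1 to 6, and the lowest number came without mouse 4 and without mouse 7, while all genes past the threshold ran from 540 (without mouse 7) to 1046 (without mouse 6). No member fell under any of these settings. Without the mouse block (the pairing of the eyes) 3 members rose, and *Rsad2* did not pass. The number of other pathway genes that rose was 0 with the macrophage marker covariate and 1 to 6 without single mice, and with DESeq2 5 rose and 1 fell (*Ifi47*, named after its value was seen). With the covariate, where their calls were lost, the log2 fold changes were 2.28 for *Trim30a*, 1.63 for *Socs1*, 0.69 for *Lgals3bp* and 0.47 for *Irgm2*. All genes past the threshold numbered 806, against 1478 with DESeq2 and 32 with the covariate. The cause of these differences was not tested, beyond the genes left out by the stricter filter. The median SD of the members between control eyes ran from 0.55 (without replicate 8) to 0.66 (without replicate 7). The median log2 fold change of the members stayed above 0 in all 15 alternatives. The members' log2 fold changes kept their sign throughout in 23 of 38 genes, and no gene that passed the test changed sign. The sign turned in genes that had not passed. Without the replicate block the log2 fold changes were then 0.36 for *Zbp1*, 0.35 for *Oas1a*, 0.25 for *Oas3*, 0.081 for *Oasl2*, 0.16 for *Gbp2*, 0.19 for *Ifnlr1* and 0.051 for *Ifngr2*. With the macrophage marker covariate they were -0.33 for *Dhx58*, -0.24 for *Irf7*, -0.13 for *Ifit3*, -0.071 for *Isg15*, 0.76 for *Oas1a*, -0.73 for *Mx2*, -0.025 for *Ifitm3*, -0.032 for *Irf8*, 0.0092 for *Irf3*, -0.49 for *Jak2*, -0.53 for *Tyk2*, -0.093 for *Il10rb*, -0.44 for *Tbk1*, -0.17 for *Ikbke* and -0.56 for *Irf5*. With no count filter the value was 0.023 for *Ifnar1*, and with at least 10 counts in every library it was -0.0094 for *Ddx58*. Without single mice they ranged from -0.12 to 0.17 for *Ifnar1*, -0.059 to 0.085 for *Ddx58*, -0.45 to 0.13 for *Zbp1*, -0.11 to 0.20 for *Isg15*, -0.32 to 0.15 for *Oas1a*, -0.52 to 0.12 for *Oasl2*, -0.099 to 0.20 for *Xaf1*, -0.44 to 0.095 for *Gbp2*, -0.19 to 0.032 for *Gbp7*, -0.15 to 0.22 for *Jak2*, -0.066 to 0.39 for *Tyk2*, -0.49 to 0.24 for *Ifnlr1*, -0.12 to 0.60 for *Ikbke*, -0.035 to 0.25 for *Irf2* and -0.20 to 0.10 for *Ifngr2*. Depth limits the statements on *Mx1*, *Rsad2*, *Cxcl10*, *Mx2*, *Ifi44* and *Irgm2*, each of which had fewer than 10 counts in at least 1 control library.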
